A study of Mus musculus with 14 samples.

Results

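The 40 immediate early and dissociation response genes are transcription factors, feedback inhibitors, heat shock proteins and matrix genes that cells switch on within minutes of a stimulus. They were taken by symbol from 34797 distinct gene names on the array, with Cyr61 and Ctgf under those older names, and each was represented by its brightest probe. All 40 had a probe, and 6 had several. On mm9 the probe of Fos lay at chr12:86817900-86817959, that of Fosb at chr7:19888168-19888227, that of Nr4a1 at chr15:101105071-101105130 and that of Gadd45b at chr10:80394367-80394426. RNA came from lymphatic endothelial cells of C57Bl/6 mice, collected in the medullary sinus or the subcapsular sinus of the node, and each sample was hybridised to 1 array. The 4 FACS samples, 2 of the medullary and 2 of the subcapsular sinus, held 1200 cells each, sorted from nodes digested with liberase and DNase I by podoplanin, CD73, a lineage cocktail and the dead-cell dye 7-AAD. The 10 LCM samples, 5 of the medullary and 5 of the subcapsular sinus, held 50 cells each, cut by laser from frozen, dehydrated sections stained for CD31 and F4/80. Nodes of different sites were used: LCM took inguinal, axillary and brachial nodes, and FACS took these and others, among them popliteal, mesenteric and cervical nodes. Isolation, node sites and cell number therefore cannot be told apart. The labels call samples biological replicates and do not tie them to animals, so that p-values below measure the spread between these samples.

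Immediate early genes are transcribed from factors already present in the cell, such as serum response factor and CREB, without new protein synthesis. Their products include the AP-1 factors, which pass the signal on, and phosphatases and mRNA decay factors, which end it. Enzymatic digestion and sorting of warm tissue are known to induce many of these genes, whereas snap freezing is used to keep the state of the tissue. Endothelial cells also express them in response to flow, growth factors and cytokines.

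Levels are log2 signals over the 75th percentile of the array. Samples of both isolations went against their label in part. Of 9 lymphatic endothelial markers, Lyve1, Cdh5 and Mmrn1 were above background on neither medullary FACS array, and Flt4 on neither subcapsular FACS array. On both medullary FACS arrays 4 were above background (Prox1, Pdpn, Pecam1 and Reln), and on both subcapsular ones 5 (Prox1, Pecam1, Cdh5, Mmrn1 and Nrp2). All 5 LCM arrays had 4 above background in the medullary sinus (Prox1, Pecam1, Cdh5 and Nrp2) and 3 in the subcapsular sinus (Prox1, Pecam1 and Nrp2). None of the 9 was below background on all LCM arrays of a sinus. Pdpn was above background on 1 and Lyve1 on 3 of 5 subcapsular LCM arrays. The mean of Pdpn, the podoplanin gene, was −0.92 in medullary and −5.25 in subcapsular FACS samples, against −2.94 and −5.26 in LCM samples. That of Prox1 was −0.81 and −2.76, against −3.07 and −1.86. Pecam1, the CD31 gene, was at −3.83 and −3.36 on the medullary FACS arrays and at 3.97 and 5.27 on the subcapsular FACS arrays. All 7 B cell and all 7 T cell markers were above background on all 4 FACS arrays, although the sort used a lineage cocktail. On all 5 LCM arrays of a sinus, all 7 B cell markers were above background in both sinuses, and 7 T cell markers in the medullary and 5 in the subcapsular sinus. The mean level of the B cell markers was 1.65 to 2.53 on medullary FACS arrays, 3.97 to 4.35 on subcapsular FACS arrays, 3.12 to 3.83 on medullary LCM arrays and 4.34 to 5.53 on subcapsular LCM arrays. The mean of 11 macrophage markers was −0.91 to 0.45 on medullary FACS arrays, 0.9 to 1.86 on subcapsular FACS arrays, 0.8 to 2.62 on medullary LCM arrays and 3.09 to 5.32 on subcapsular LCM arrays. The mean of 9 blood and high endothelial markers was 0.97 to 1.98 on medullary and −2.25 to −0.6 on subcapsular LCM arrays. On FACS arrays it was −2.25 to −0.78 in the medullary and −0.54 to 0.11 in the subcapsular sinus. The part of other cell types in the results below was not tested. In such bulk samples fewer cells of a type and less RNA per cell cannot be told apart. All FACS arrays lay on slide 2, together with medullary LCM replicates 4 and 5. In FACS each sinus had its own row of the slide, so that sinus and row cannot be told apart. Of the LCM arrays, subcapsular replicates 1 to 4 lay in row 1 and replicate 5 in row 2 of slide 1. Medullary replicates 1 to 3 lay in row 2 of slide 1, and replicates 4 and 5 in row 1 of slide 2. Sinus was thus largely tied to slide and row in LCM as well.

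All 40 genes were above background on both subcapsular FACS arrays, and 36 and 35 were on the medullary FACS arrays. On LCM arrays, 31 to 35 were above background in the medullary sinus and 22 to 34 in the subcapsular sinus. The median level of the 40 genes was −0.5 and 0.35 on the medullary FACS arrays, against 2.44 and 2.87 on the subcapsular FACS arrays. It was −1.13 to 0.59 on the medullary LCM arrays, against −3.65 to −0.04 on the subcapsular LCM arrays. The subcapsular FACS pair was thus above all other arrays. The 16 housekeeping genes had medians of 2.23 and 1.69 on medullary FACS arrays, 3.48 and 3.4 on subcapsular FACS arrays, 1.74 to 3 on medullary LCM arrays and 2.32 to 3.96 on subcapsular LCM arrays. Of the 40 genes, 16 had their highest level of the 14 arrays on subcapsular FACS replicate 7 and 8 on subcapsular FACS replicate 6.

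**Figure D1:**
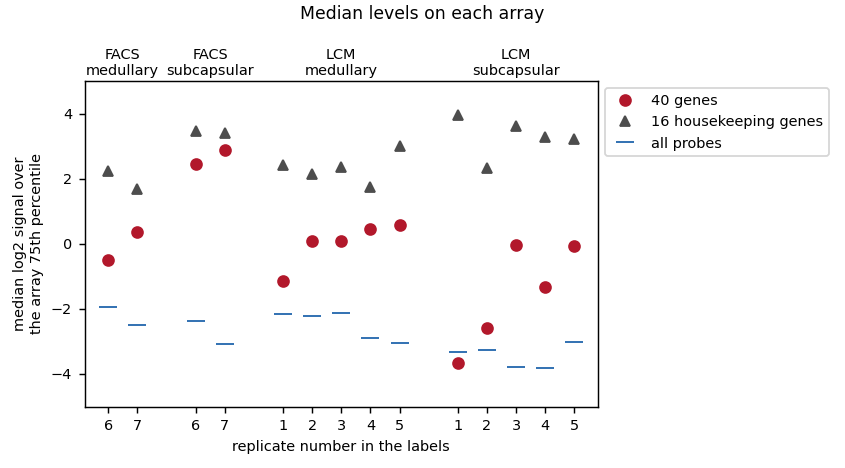
Median log2 signal over the array's 75th percentile on each of the 14 arrays, for the 40 genes (circles), 16 housekeeping genes (triangles) and all probes (dashes). The 2 subcapsular FACS arrays have the highest medians of the 40 genes, 2.44 and 2.87, and the lowest is −3.65 on subcapsular LCM replicate 1.

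**Figure D2:**
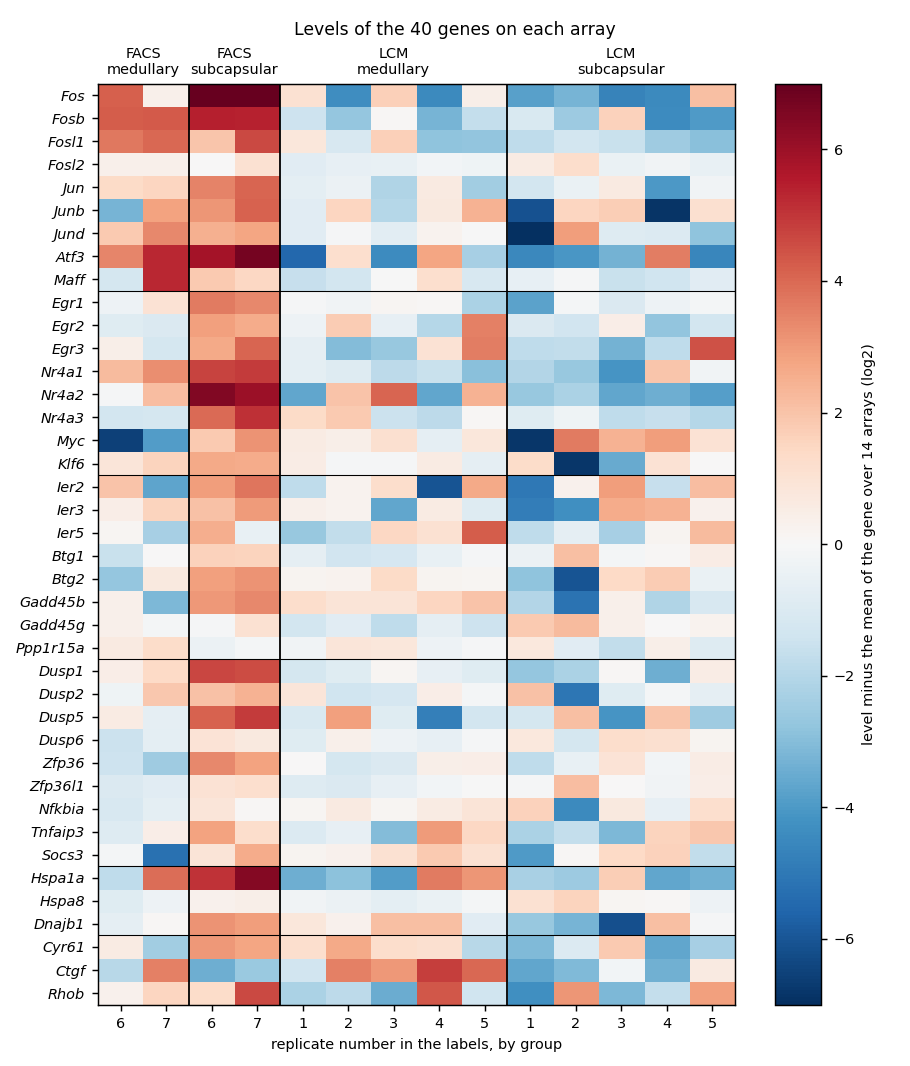
Level of each of the 40 genes on each array minus the mean of the gene over 14 arrays (log2, colour), with genes grouped by role and arrays by group and replicate number. The subcapsular FACS columns are red for most genes, and single LCM arrays stand out in genes such as Myc on subcapsular LCM replicate 1.

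FACS samples were set against LCM samples, as the mean of both sinuses, to ask which of these genes differ between digested and frozen tissue. Of the 40 genes, 9 rose in FACS samples and none fell. Over all 29692 genes tested, 1.83% were called higher and 2.04% lower (limma, Benjamini-Hochberg adjusted p under 0.05). The 9 were Fosb, Fos, Fosl1, Jun and Atf3 of the AP-1 group, Nr4a1, Nr4a2 and Egr1 of the other early transcription factors, and the phosphatase Dusp1. The difference was above 0 in 33 of 40 genes, against 57.3% of all genes, and its median was 1.99 on the log2 scale, against 0.17 for all genes. With the undetected subcapsular LCM levels of 4 genes raised to each array's dimmest signal well above background, the median of the 40 was 1.8. In 4 genes, Fosb, Nr4a1, Fosl1 and Jun, all FACS arrays exceeded all LCM arrays, against 0.461% of all genes. Fosl1, Nr4a3 and Maff passed the filter on low values through FACS arrays alone, so that their direction and the call of Fosl1 are no support for the counts.

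The AP-1 group, whose proteins pair to bind DNA, held 5 of the 9 calls among its 9 genes. Fosb was at 4.6 and 4.62 on medullary FACS arrays and at 5.76 and 5.73 on subcapsular FACS arrays. On LCM arrays Fosb was at −1.08, −2.38, 0.41, −2.92 and −1.33 in the medullary sinus and at −0.7, −2.18, 1.97, −4.05 and −3.63 in the subcapsular sinus. The FACS arrays lay close together and above every LCM array. The difference was 6.77 ± 0.84 on the log2 scale (SE, 4 FACS and 10 LCM arrays, limma adjusted p = 0.000443), or 109-fold.

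Fos itself was at 1.86 and −1.98 on medullary FACS arrays and at 5.28 and 5.29 on subcapsular FACS arrays. On LCM arrays Fos was at −1.27, −6.68, −0.67, −6.8 and −1.94 in the medullary sinus and at −6.12, −5.61, −6.98, −6.79 and −0.22 in the subcapsular sinus. Medullary FACS replicate 7 lay below the 3 highest medullary LCM arrays and within the LCM range, while both subcapsular FACS arrays lay far above it. Fos was above background on 4 of 4 FACS arrays and on 4 of 10 LCM arrays. The mean difference was 6.92 ± 1.3 (SE, limma adjusted p = 0.00921). No fold, or only a lower bound, is given for genes that were below background on part of the LCM arrays.

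Fosl1, a Fos relative without the activation domain of Fos, was at −0.7 and −0.37 on medullary and at −2.43 and 0.21 on subcapsular FACS arrays. Its LCM levels ran from −7.32 to −2.74 with a median of −6.07, and 2 medullary but no subcapsular LCM arrays were above background. Fosl1 was higher in FACS samples (fitted 5 ± 0.75, SE, limma adjusted p = 0.00232) on the scale of the processed signal, while normexp background correction gave a difference of 1.74. No fold is given, since LCM arrays of both sinuses were below background. All 4 FACS arrays exceeded the highest LCM array.

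Jun was at 3.18 and 3.31 on medullary and at 5.3 and 5.91 on subcapsular FACS arrays, against −2.19 to 2.43 (median 1.24) on LCM arrays. Its difference was 3.64 ± 0.68 (SE, limma adjusted p = 0.00944), or 12.5-fold, with no overlap. Atf3, a stress-induced partner of Jun, was at 1.89 and 3.76 on medullary and at 4.31 and 5.15 on subcapsular FACS arrays. Its LCM levels were −7.03 to 2.05 (median −5.21), and only subcapsular LCM replicate 4 reached into the FACS range. Atf3 was above background on 4 of 4 FACS arrays and on 4 of 10 LCM arrays. It differed by 7.43 ± 1.46 (SE, limma adjusted p = 0.0121).

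The other 4 AP-1 relatives were above 0 without being called. Jund, which is expressed in most resting cells, differed by 3.66 ± 1.12 (SE, limma adjusted p = 0.104). Maff, a small Maf protein, differed by 2.55 ± 0.95 (limma adjusted p = 0.188) and was above background on no subcapsular LCM array, so that no fold is given. Junb differed by 2.36 ± 1.57 and Fosl2 by 0.62 ± 0.39. The probe of Fosl2 that was not the brightest gave −1.15 ± 1.46.

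**Figure D3:**
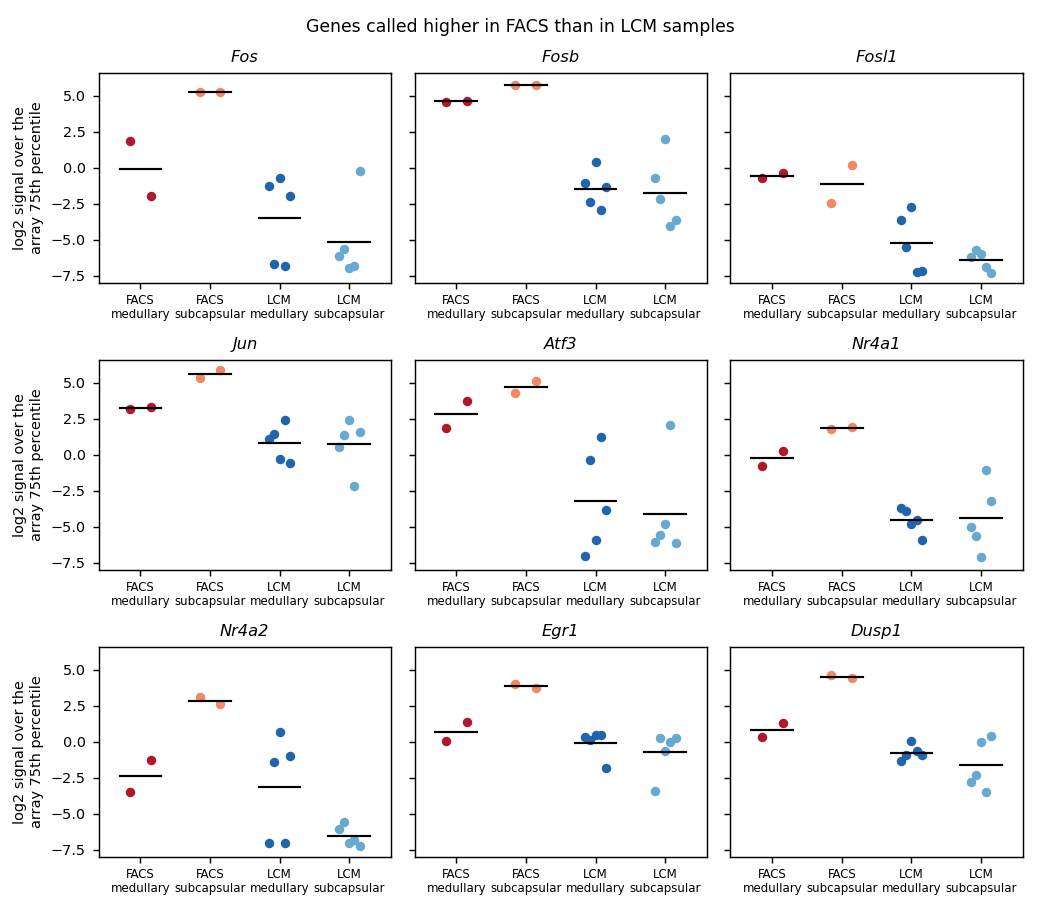
Levels (log2 signal over the array's 75th percentile, 1 point per array, line at the group mean) of the 9 genes called higher in FACS samples, in medullary FACS, subcapsular FACS, medullary LCM and subcapsular LCM samples. Fosb, Fosl1, Jun and Nr4a1 show no overlap between FACS and LCM arrays, and Nr4a2 and Egr1 are high mainly on the subcapsular FACS arrays.

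Among the Egr, Nr4a, Klf6 and Myc transcription factors, 3 of 8 genes rose in FACS samples. Nr4a1, an orphan nuclear receptor, was at −0.76 and 0.28 on medullary and at 1.77 and 1.9 on subcapsular FACS arrays, against −7.11 to −1.03 (median −4.67) on LCM arrays. Nr4a1 was above background on 4 of 4 FACS and 5 of 10 LCM arrays. The difference was 5.28 ± 0.78 (SE, limma adjusted p = 0.00192), with no overlap. Its relative Nr4a2 was at −3.47 and −1.25 on medullary and at 3.07 and 2.58 on subcapsular FACS arrays, against −7.24 to 0.65 (median −6.46) on LCM arrays. Only 3 medullary LCM arrays and no subcapsular one were above background, so that no fold is given. The fitted difference of Nr4a2 was 5.09 ± 1.12 (SE, limma adjusted p = 0.0232). A second probe of Nr4a2 gave a smaller difference of 2.58 ± 0.87.

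Nr4a3, the remaining receptor of the family, differed by 2.31 ± 0.6 (SE, limma adjusted p = 0.0541). Neither medullary FACS array and no subcapsular LCM array had it above background, while both subcapsular FACS and 2 of 5 medullary LCM arrays did, so that no fold is given. Egr1, the serum-inducible zinc finger factor, was at 0.01 and 1.36 on medullary and at 3.98 and 3.69 on subcapsular FACS arrays, against −3.42 to 0.49 (median 0.17) on LCM arrays. It differed by 2.67 ± 0.62 (SE, limma adjusted p = 0.0306), or 6.38-fold, and medullary FACS replicate 6 lay within the LCM range. Egr2, Egr3 and Klf6 differed by 1.26 ± 0.76, 2.05 ± 1.22 and 2.7 ± 1.05 (SE), and Myc by −1.91 ± 1.31, none of them called.

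Of the feedback inhibitors, 1 of 9 rose. Dusp1, the phosphatase that inactivates p38 and JNK, was at 0.34 and 1.3 on medullary and at 4.6 and 4.44 on subcapsular FACS arrays, against −3.53 to 0.42 (median −0.95) on LCM arrays. Its difference was 3.88 ± 0.61 (SE, limma adjusted p = 0.00299), or 14.8-fold, and 1 medullary FACS array lay just inside the LCM range. The nuclear ERK phosphatases Dusp2 and Dusp5 differed by 2.11 ± 0.88 and 3.13 ± 1.14, with limma adjusted p = 0.251 and 0.179. The other 6, Dusp6, Zfp36, Zfp36l1, Nfkbia, Tnfaip3 and Socs3, lay between −0.63 and 1.26.

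None of the 8 Ier, Btg, Gadd45 and Ppp1r15a genes was called, and their differences ran from −0.05 in Ier5 to 2.49 in Ier3. The second probe of Btg1, an antiproliferative gene, gave 3.28 ± 1.6 where the brightest gave 0.58 ± 0.48. None of 3 heat shock genes was called. Hspa1a, the inducible chaperone, differed by 4.74 ± 1.45 (SE, limma adjusted p = 0.104), its cochaperone Dnajb1 by 1.92 ± 1.01, and the constitutive Hspa8 by −0.19 ± 0.38. Hspa1a has a near-identical neighbour, Hspa1b, and its probe may read both. Another probe of Hspa8 gave −1.28 ± 0.4. Of the matrix and cytoskeleton genes, the small GTPase Rhob differed by 2.7 ± 1.4, and the matricellular Cyr61 and Ctgf by 1.38 ± 0.92 and −1.53 ± 1.17, none called.

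**Figure D4:**
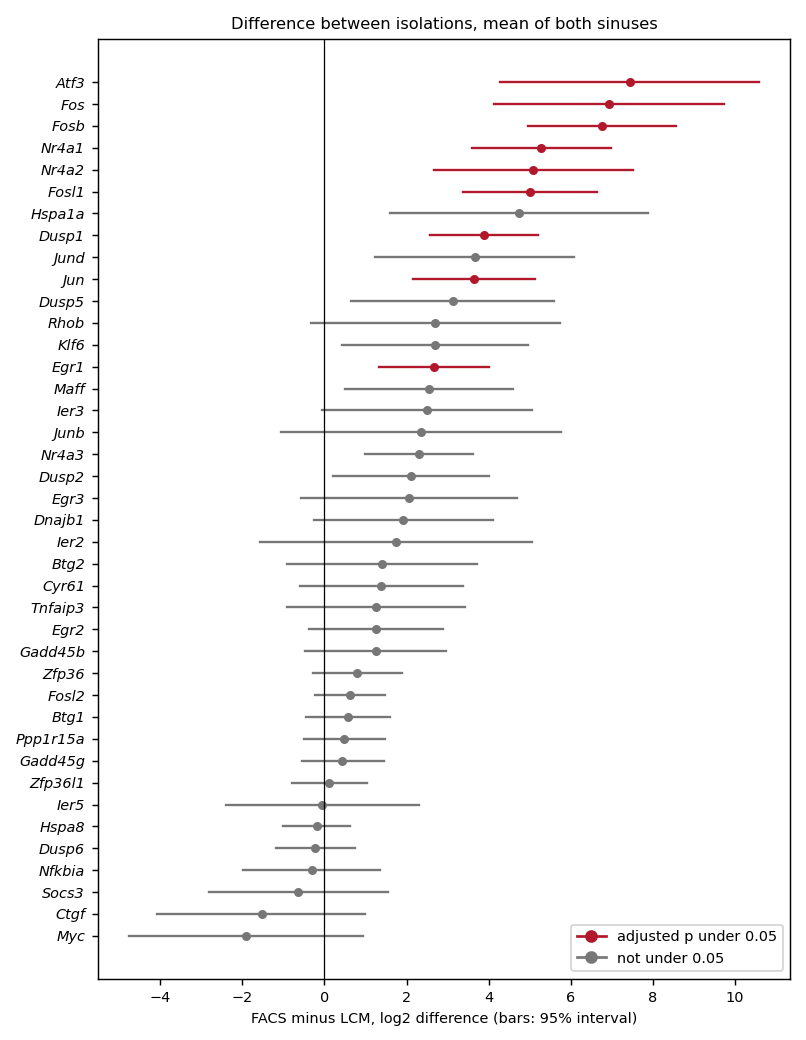
FACS minus LCM difference (log2, mean of both sinuses) of each of the 40 genes with its 95% interval, sorted by size. The 9 genes called at an adjusted p under 0.05 (red) lie between 2.67 (Egr1) and 7.43 (Atf3), and Hspa1a at 4.74 is not called.

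The calls differed in number between the sinuses. Within the subcapsular sinus 11 genes were called higher in FACS than in LCM samples (0.657% of 29693 genes), and all FACS arrays exceeded all LCM arrays in 23 of 40 genes (6.07% of genes). The median difference was 4.06, against −0.13 for all genes. All 5 subcapsular LCM arrays lay on slide 1 and both subcapsular FACS arrays on slide 2. Isolation and slide therefore cannot be told apart within the subcapsular sinus. Fosl1, Nr4a3 and Maff, which entered through FACS arrays alone, are no support for these counts. Within the medullary sinus 3 genes were called higher (3.29% of genes), 10 did not overlap upward (21% of genes) and 5 did not overlap downward (10.4% of genes). There the median was 0.38, against 0.47 for all genes. The test of this contrast between sinuses is the interaction given below. It passed for 3 of the 40 genes and for none of the 9 called over both sinuses, but with normexp background correction for 4 of these 9 (Nr4a2, Dusp1, Fos and Egr1). These counts use the brightest probes, and the second probe of Nr4a2 is given below.

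Fosb, Fosl1 and Nr4a1 were the 3 genes called within each sinus. In the medullary sinus Fosb differed by 6.07, Fosl1 by 4.71 and Nr4a1 by 4.33 between FACS and LCM samples (limma adjusted p = 0.00894, 0.0208 and 0.036). In the subcapsular sinus Fosb differed by 7.46 and Nr4a1 by 6.23, and for Fosl1 the lower bound was 14.1-fold (limma adjusted p = 0.00676, 0.015 and 0.0328). Within the subcapsular sinus Fos differed by 10.43 ± 1.83 (SE, limma adjusted p = 0.0145), a size that depends on unmeasured levels, since only 1 of 5 LCM arrays was above background. Dusp1, detected on all arrays, was 72.1-fold higher there, and Nr4a2 at least 215-fold (limma adjusted p = 0.00215 and 0.0107). Within the medullary sinus Fos differed by 3.41 ± 1.83, Dusp1 by 1.6 ± 0.86 and Nr4a2 by 0.81 ± 1.59, with none called. Nr4a3, Egr1, Jun, Zfp36 and Gadd45b were the other genes called in the subcapsular sinus, with differences of 5.86, 4.56, 4.86, 3.29 and 5.21.

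With the slide as a block 2 of the 40 genes, Fosb and Fosl1, were called. The differences of the others were 8.11 in Fos, 6.2 in Nr4a2, 6.15 in Nr4a1, 4.94 in Atf3, 3.93 in Dusp1, 3.51 in Jun and 3.48 in Egr1, smaller in Atf3 and Jun and larger in the other 5 than without the block. On slide 2 alone, where only medullary arrays of both isolations lie, none was called with 2 arrays per isolation. There Fosb differed by 6.74, Fosl1 by 6.65 and Nr4a1 by 4.98, but Fos by 4.31, Atf3 by 4.15, Jun by 2.33, Nr4a2 by 1.64, Dusp1 by 1.63 and Egr1 by 1.39, and the median of the 40 genes was −0.39. With normexp background correction all 9 stayed called and Jund was added. This correction called 982 genes of the array, 359 of them higher. The differences of genes near background were smaller with it, at 4.91 in Atf3, 4.33 in Fos, 2.92 in Nr4a1 and 2.42 in Nr4a2, and the median of the 40 was 0.99, against −0.02 for all genes.

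Without subcapsular FACS replicate 6 the 9 calls became 5, and without replicate 7 they became 4, with Fosb, Fosl1, Nr4a1 and Dusp1 in both. Markers of cell types moved with isolation as well. Of 9 lymphatic endothelial markers 6 were below 0 in FACS minus LCM, and Pecam1 (−3.99) and Cdh5 (fitted −2.94) fell. Of 7 fibroblastic and mural markers 6 were below 0, and Cxcl13 (−6.51), Pdgfra (fitted −5.59) and Col1a2 (−3.68) fell. All 11 macrophage markers were below 0, and Timd4 (−5.27), C1qa (−4.67), Lyz1 (−3.42) and Lyz2 (−3.33) fell. All 7 B cell markers were below 0, and Fcer2a (−2.77) fell. Of 8 neutrophil and dendritic markers, 4 were above 0 and Itgax (fitted 2.67), detected on subcapsular FACS arrays only, rose. No blood endothelial, T cell or erythroid marker was called. The part of these markers in the differences of the 40 genes was not tested.

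Other gene lists were set beside the 40. Of 30 other immediate early genes, 1 rose and none fell, with a median difference of 0.58. This was Egr4, a further Egr factor, at −2.01 and −1.74 on medullary and at −4.33 and −1.9 on subcapsular FACS arrays. Egr4 was above background on 1 of 10 LCM arrays and higher in FACS samples (fitted 3 ± 0.58, SE, limma adjusted p = 0.0113). It passed the filter on low values through FACS arrays alone, so that its call is no support. None of 17 other heat shock genes (median 0.18), 24 upstream factors and kinases (median −0.32) or 16 housekeeping genes (median 0.07) was called.

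The 250 bases before the start are shown for 6 genes, each of which held a motif that was searched. Of these, 4 (Fos, Atf3, Dusp1 and Nr4a2) rose in FACS samples, and the other 2, Zfp36 and Gadd45b, had a called interaction. The sequences are RefSeq promoters on GRCm38.p6, read 5′ to 3′ along the gene. Capitals mark matches to the letters of motifs at any position, which need not be working elements. Marked are TATAAA, the letters of a TATA box, and, in Zfp36, the CArG box bound by serum response factor. The CRE bound by CREB family factors is marked as TGACGTCA, or as its shorter form TGACGT, which the full form contains. Both strands were searched, and a match on the opposite strand reads TTTATA or ACGTCA here.
Fos (chr12:85473640-85473889, plus strand): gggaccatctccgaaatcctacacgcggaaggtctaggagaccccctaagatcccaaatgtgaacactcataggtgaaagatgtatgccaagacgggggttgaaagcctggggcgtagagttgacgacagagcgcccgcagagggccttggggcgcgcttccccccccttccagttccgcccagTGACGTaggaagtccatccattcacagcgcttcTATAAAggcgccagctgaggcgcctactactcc
Atf3 (chr1:191183334-191183583, minus strand): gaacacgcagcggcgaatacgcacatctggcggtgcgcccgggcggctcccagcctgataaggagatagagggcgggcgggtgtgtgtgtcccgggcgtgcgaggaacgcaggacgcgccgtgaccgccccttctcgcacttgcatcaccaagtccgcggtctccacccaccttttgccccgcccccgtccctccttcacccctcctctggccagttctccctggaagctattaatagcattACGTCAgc
Dusp1 (chr17:26508473-26508722, minus strand): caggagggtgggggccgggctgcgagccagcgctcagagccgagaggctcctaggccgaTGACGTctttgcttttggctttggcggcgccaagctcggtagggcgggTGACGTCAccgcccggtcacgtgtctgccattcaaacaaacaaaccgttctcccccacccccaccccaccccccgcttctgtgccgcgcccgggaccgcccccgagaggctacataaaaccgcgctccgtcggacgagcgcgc
Nr4a2 (chr2:57124004-57124253, minus strand): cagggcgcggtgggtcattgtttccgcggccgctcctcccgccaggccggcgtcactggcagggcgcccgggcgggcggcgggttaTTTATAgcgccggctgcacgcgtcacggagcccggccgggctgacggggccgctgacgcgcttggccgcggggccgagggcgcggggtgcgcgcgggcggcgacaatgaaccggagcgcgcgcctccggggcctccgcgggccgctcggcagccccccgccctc
Zfp36 (chr7:28379229-28379478, minus strand): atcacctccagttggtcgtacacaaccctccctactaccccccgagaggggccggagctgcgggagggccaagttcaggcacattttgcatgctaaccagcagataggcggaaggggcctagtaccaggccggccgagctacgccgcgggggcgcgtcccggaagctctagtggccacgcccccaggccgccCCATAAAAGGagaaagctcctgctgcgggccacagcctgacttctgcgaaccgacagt
Gadd45b (chr10:80929841-80930090, plus strand): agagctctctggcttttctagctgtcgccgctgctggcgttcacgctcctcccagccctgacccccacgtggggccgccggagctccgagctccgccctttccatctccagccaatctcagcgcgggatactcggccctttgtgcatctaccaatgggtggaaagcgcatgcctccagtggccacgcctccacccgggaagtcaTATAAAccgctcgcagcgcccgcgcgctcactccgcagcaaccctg
In Nr4a2 the TATAAA match, on the opposite strand, lay 164 to 159 bases before the start, and in Gadd45b it lay 46 to 41 bases before it. In Fos TGACGT ended 61 bases and TATAAA ended 28 bases before the start, in Dusp1 the TGACGTCA began 143 bases before it, and in Zfp36 the CArG box began 58 bases before it. Of the 40 genes, 33 were found in the table of 27025 genes, whose windows also hold the first 50 transcribed bases. Fosb, Jun and Nr4a1, which also rose in FACS samples, were among the 33 and held none of the motifs searched. Fosl1 and Egr1, called as well, were not in the table. TGACGTCA stood in 12.1% of the 33 (Dusp1, Btg2, Maff and Ppp1r15a), against 2.03% of all genes. The CArG box stood in 9.09% (Egr2, Dusp5 and Zfp36) against 1.81%, and TATAAA in 33.3% against 15.7%. TGACGT, which was added to the search after the others had been read, stood in 36.4% against 8.37%. The AP-1 site, TGACTCA on one strand and TGAGTCA on the other, stood in 3.03% against 5.95%, the Egr site GCGTGGGCG in 3.03% against 0.71%, and the heat shock element (units of GAA, TTC and GAA with a gap of 2 bases between units) in none of the 33, against 0.66%.

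Within FACS the medullary sinus was set against the subcapsular sinus. No gene of the array was called at 2 arrays per sinus (0% of 27668 genes). At an unadjusted p under 0.05, 19 of the 40 genes were lower and none higher in the medullary sinus, against 13.7% of all genes lower and 18.2% higher. The difference was below 0 in 36 of 40 genes (40.5% of all genes) with a median of −2.3, against 0.74 over all genes. In 31 genes both medullary arrays were below both subcapsular arrays (26.7% of genes), and in 2, Ppp1r15a and Ctgf, both were above (43% of genes). Nr4a3, Ier2, Ier5, Myc, Tnfaip3, Socs3, Cyr61 and Maff passed the filter through the subcapsular arrays alone, so that their direction is no support for these counts.

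All 8 of the Egr, Nr4a, Klf6 and Myc genes and all 9 feedback inhibitors were without overlap below the subcapsular arrays, against 26.7% of all genes. Among them Nr4a3, Myc, Tnfaip3 and Socs3 passed the filter through the subcapsular arrays alone, so that they are no support for these counts. Myc, the growth-promoting factor, was at −5.65 and −3.03 on medullary and at 2.74 and 4.02 on subcapsular FACS arrays, a difference of −7.72 ± 1.17 (SE, limma adjusted p = 0.0738). Nr4a3 was at −6.57 and −6.49 on medullary arrays, where it was not above background, and at −1.31 and −0.15 on subcapsular arrays. It was at least 14.9-fold lower in medullary FACS samples (fitted −5.8 ± 0.69, SE, limma adjusted p = 0.0645). Zfp36, which marks AU-rich mRNAs for decay, was at −2.88 and −3.93 on medullary and at 1.92 and 1.4 on subcapsular arrays. It differed by −5.06 ± 0.69 (SE, limma adjusted p = 0.0683).

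Egr2 was at −3.39 and −3.56 on medullary and at 0.33 and 0.09 on subcapsular FACS arrays (−3.68 ± 0.56, SE, limma adjusted p = 0.0738). Dusp5 was at −1.73 and −2.93 on medullary and at 1.8 and 2.58 on subcapsular arrays (−4.52 ± 0.75, SE, limma adjusted p = 0.0786). Dusp1, with the levels given above, differed by −3.7 ± 0.65 (SE, limma adjusted p = 0.0834). In each of these genes the arrays of a sinus lay much closer to each other than to those of the other sinus.

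Fos differed by −5.34 ± 1.47, Egr1 by −3.15 ± 0.73 and Jun by −2.36 ± 0.59 between sinuses in FACS (SE, limma adjusted p = 0.124, 0.106 and 0.113). Fosb, at −1.13 ± 0.55, differed less, and Jund, at −0.03 ± 0.76, Fosl2, at −0.19 ± 0.66, Fosl1, at 0.57 ± 1.09, and Maff, at 0.37 ± 2.38, had overlapping sinuses. Ctgf, at −3.33 and 2.16 on medullary and at −4.77 and −3.96 on subcapsular arrays, differed by 3.78 ± 2.04. Ppp1r15a, a regulatory subunit of the phosphatase that restarts translation after stress, differed by 1.2 ± 0.6. The same other Hspa8 probe gave −4.38 ± 0.81 where the brightest gave −0.96 ± 0.57.

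Other lists also lay below 0 in this contrast. The median was −2.03 for 29 other immediate early genes, of which 23 were below 0. It was −1.21 for 16 other heat shock genes, −1.56 for 22 upstream factors and −1.35 for 16 housekeeping genes, of which 14 were below 0. Centred on the housekeeping genes of each array, the FACS contrast called 4 of the 40 genes lower, Dusp5, Myc, Nr4a3 and Zfp36, and moved the median of all genes to 2.22. That setting called 7416 genes of the array, 6515 of them higher. All 7 B cell markers (median −1.91), 7 of 8 neutrophil and dendritic markers (median −2.06) and 8 of 11 macrophage markers (median −1.91) were below 0 as well, and their part was not tested.

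Within LCM none of the 37 genes tested was called between sinuses, where 0.175% of 27383 genes were called. Fosl1, Nr4a3 and Maff were above background on too few LCM arrays to enter. At an unadjusted p under 0.05, 3 genes were higher in the medullary sinus and 1 was lower (6.88% and 4.81% of all genes). The difference was above 0 in 25 of 37 genes (52.6% of all genes), with a median of 0.66, against 0.08 over all genes. Fos, Atf3, Nr4a1, Nr4a2, Tnfaip3, Cyr61 and Ctgf passed the filter through the medullary arrays alone, so that their direction is no support for these counts.

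Gadd45b, a stress-induced growth arrest gene, was at 1.01, 0.64, 0.67, 1.26 and 1.73 on medullary LCM arrays and at −2.29, −5.39, 0.11, −2.35 and −1.39 on subcapsular LCM arrays. The sinuses did not overlap, with a difference of 3.33 ± 0.89 (SE, n = 5 each, limma adjusted p = 0.212). Its relative Gadd45g was at 0.42, 0.93, −0.07, 1.1 and 0.3 on medullary LCM arrays and at 3.56, 3.93, 2.07, 1.75 and 1.98 on subcapsular LCM arrays. It lay the other way, also without overlap, at −2.12 ± 0.58 (SE, limma adjusted p = 0.222). Groups without overlap made up 1.03% of genes higher and 2.06% of genes lower.

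Ctgf was at −2.74, 2.17, 1.63, 3.48 and 2.66 on medullary LCM arrays and at −5.02, −4.47, −1.59, −4.76 and −0.75 on subcapsular LCM arrays. Only medullary replicate 1 lay inside the subcapsular range, and the difference was 4.76 ± 1.28 (SE, limma adjusted p = 0.215). Ctgf was thus at positive differences in both isolations, 3.78 in FACS and 4.76 in LCM, with neither called. Nr4a2, which was detected on 3 medullary and on no subcapsular LCM array, was at least 3.39-fold higher (fitted 3.39 ± 1.48, SE, limma adjusted p = 0.411), and its second probe gave 3.56 ± 1.02. On LCM arrays it was at −7.06, −1.43, 0.65, −7.03 and −0.97 in the medullary sinus and at −6.08, −5.61, −7.02, −6.83 and −7.24 in the subcapsular sinus.

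Cyr61 was at −1.81, −0.37, −1.75, −1.87 and −4.94 on medullary LCM arrays and at −6.1, −3.96, −1.16, −6.66 and −5.35 on subcapsular LCM arrays, a difference of 2.5 ± 1.14 (SE, limma adjusted p = 0.428). Dnajb1 was at 1.14, 0.66, 2.46, 2.45 and −0.45 on medullary LCM arrays and at −2.31, −2.92, −5.82, 2.45 and 0.23 on subcapsular LCM arrays, a difference of 2.93 ± 1.37 (SE, limma adjusted p = 0.437). Both genes were higher on most medullary arrays, and their sinuses overlapped.

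Fos differed by 1.67 ± 1.64 between sinuses in LCM, Egr1 by 0.62 ± 0.81 and Jun by 0.07 ± 0.92 (SE, limma adjusted p = 0.742, 0.803 and 0.986). Egr1 was at 0.29, 0.12, 0.49, 0.43 and −1.84 on medullary LCM arrays and at −3.42, 0.22, −0.66, 0 and 0.23 on subcapsular LCM arrays. Jun was at 1.12, 1.42, −0.27, 2.43 and −0.59 on medullary LCM arrays and at 0.55, 1.36, 2.43, −2.19 and 1.58 on subcapsular LCM arrays. In all 3 genes the sinuses overlapped, and the spread within a sinus was wider than the difference. Blood and high endothelial markers moved with sinus in LCM, with 8 of 9 above 0 and Fut7, Darc and Chst4 called higher in the medullary sinus, while 10 of 11 macrophage markers were below 0. Their part in the values above was not tested.

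**Figure D5:**
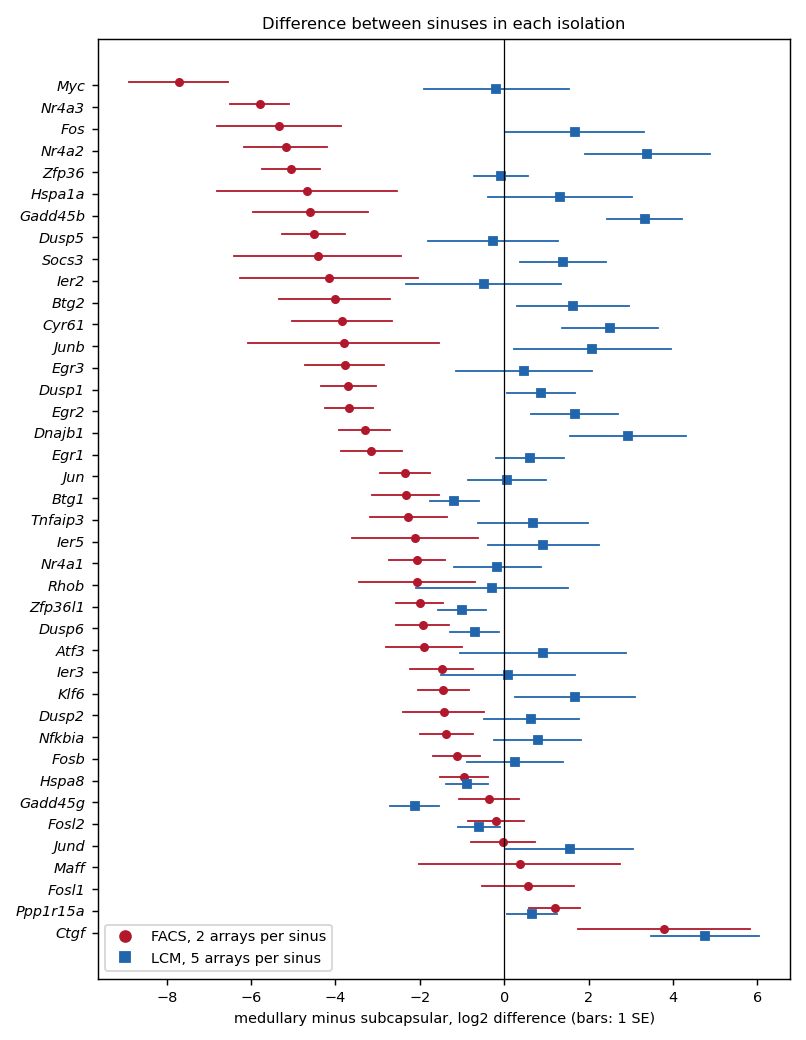
Medullary minus subcapsular difference (log2, bars of 1 SE) of each gene in FACS (red circles, 2 arrays per sinus) and LCM (blue squares, 5 arrays per sinus), sorted by the FACS value. In FACS 36 of 40 genes lie below 0 and in LCM 25 of 37 lie above it, and Fosl1, Nr4a3 and Maff have no LCM value.

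The sinus contrast of FACS was tested against that of LCM in an interaction over the 14 arrays. Of the 40 genes, 3 were called, all lower, where 0.741% of 29692 genes were called lower and 0.559% higher. A negative value means that the medullary minus subcapsular difference was lower in FACS than in LCM. It was below 0 in 36 of 40 genes (42.3% of all genes) with a median of −2.99, against 0.52 over all genes.

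Gadd45b had an interaction of −7.93 ± 1.58 (SE, limma adjusted p = 0.0318). It was at 0.1 and −3.4 on medullary and at 2.78 and 3.12 on subcapsular FACS arrays, a difference of −4.6 ± 1.36, and lay the other way in LCM. Zfp36 had an interaction of −4.99 ± 1 (limma adjusted p = 0.0321). On LCM arrays Zfp36 was at −1.41, −2.67, −2.44, −1.05 and −0.97 in the medullary sinus and at −3.2, −1.97, −0.46, −1.61 and −0.94 in the subcapsular sinus, a difference of −0.07 ± 0.64. The sinuses thus overlapped fully in LCM and were apart in FACS.

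Nr4a3 had an interaction of −7.1 ± 1.21 (SE, limma adjusted p = 0.0176). It was at −3.93, −3.45, −6.79, −7.1 and −5.19 on medullary LCM arrays and at −6.11, −5.6, −7.03, −6.88 and −7.3 on subcapsular LCM arrays. Neither medullary FACS samples nor subcapsular LCM samples had an array above background, so the fitted size depends on unmeasured levels, and with normexp background correction it was −1.63 (limma adjusted p = 0.102). Nr4a3 passed the filter through the subcapsular FACS arrays alone, so that its call is no support for the count.

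The next genes were Nr4a2 at −8.57 ± 2.24, Dusp1 at −4.58 ± 1.22 and Egr2 at −5.35 ± 1.51 (SE, limma adjusted p = 0.0729, 0.0756 and 0.0897). The second probe of Nr4a2, above background on 7 arrays, gave −10.45 ± 1.74 (SE, limma unadjusted p = 4.75e-05). This unadjusted p was below that of the called Nr4a3 (5.8e-05). On LCM arrays Dusp1 was at −1.34, −0.95, 0.03, −0.65 and −0.96 in the medullary sinus and at −2.81, −2.33, 0, −3.53 and 0.42 in the subcapsular sinus. Egr2 was at −2.89, −0.75, −3.08, −4.54 and 0.97 on medullary LCM arrays and at −3.57, −3.86, −2.05, −5.32 and −3.83 on subcapsular LCM arrays. The sinuses of both genes overlapped in LCM, and in FACS the medullary arrays were the lower ones. Fos, at −7.01 ± 2.59, Egr1, at −3.78 ± 1.24, and Jun, at −2.43 ± 1.37, were not called (limma adjusted p = 0.162, 0.127 and 0.313). With normexp background correction Nr4a2 (−5.04), Dusp1 (−3.76), Fos (−5.06) and Egr1 (−3.36) were called (limma adjusted p = 0.0235, 0.0254, 0.0377 and 0.0398), and Nr4a3 was lost. There 694 genes of the array were called, 390 of them higher.

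Of the genes outside the 40, Plk3 and Ptgs2 of the other immediate early list had called interactions of −8.21 and −5.66 (limma adjusted p = 0.0382 and 0.038). Neither was above background on a medullary FACS array. Ptgs2 passed the filter through the subcapsular FACS arrays alone, so that its call is no support. The 3 calls were lost without array weights, without subcapsular FACS replicate 6 or without replicate 7, became 1 (Nr4a3) without medullary LCM replicate 5 or with the slide as a block, and were 5 without medullary FACS replicate 6. Of the cell type markers, Pecam1, the blood endothelial Darc and the T cell factor Tcf7 had called interactions of −8.86, −6.92 and −5.45 (limma adjusted p = 0.012, 0.0177 and 0.0422). All 9 blood and high endothelial and all 8 neutrophil and dendritic markers were below 0, and their part in the other interactions was not tested.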

How the data were processed

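The deposited files were 14 scanner outputs and a series table of log2 values. Per the file headers, the authors ran Agilent Feature Extraction 10.7.3.1, and each spot holds a background-adjusted intensity on mm9 probe positions. The authors also deposited log2 values with a median of 5.43 on each array and ranks equal to those of the scanner signals. How they were made is not given in the sources used here.

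From the intensities, the log2 processed signal minus the 75th percentile over non-control probes of each array was taken as the level. Outlier spots were left out and repeated spots averaged. No spot was saturated. Genes carry the file's own name. A gene entered a comparison when well above background on at least 3 of 5 LCM arrays or both FACS arrays of a sinus. Fits used lmFit and eBayes of limma 3.58.1 (R 4.3.3, data.table version 1.17.8), with 4 group means and array weights by isolation (FACS 1.4, LCM 0.874) in fits over 14 arrays. Where no array of the lower group was above background, a fold is a lower bound against each array's dimmest signal well above background, or the measured signal where higher. The number of arrays limits the precision. The fits were tested on simulated data. Python 3.11.15 and matplotlib 3.10.9 drew the figures.

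The 40 genes, the gene and marker lists and the tests were chosen with earlier results of these data known. Full values are given for Fos, Jun, Egr1, each called gene and the 6 lowest p-values of each comparison, and the other genes are given by range. Of the other lists, called genes are named. Alternatives were background correction, scaling, filter, probe choice, eBayes options, weights, slide, row, pairing and leaving out each array. Across genes, same-numbered deviations correlated by −0.02 to 0, which cannot show whether same-numbered samples came from the same animals.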

Additional observations from a re-analysis of the deposited data

Results flagged for a closer look

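Among 80 groups of 5 LCM arrays, 9 held 1 array far from the nearest of the others, 3 medullary and 6 subcapsular, where chance flags about 1 in 20 (5%). On subcapsular LCM replicate 5, Fos was at −0.22 and Egr3 at 2.47, with the nearest arrays at −5.61 and −3.68. On subcapsular LCM replicate 1, Egr1 was at −3.42 and Myc at −5.94, with the nearest at −0.66 and 1.9. On subcapsular LCM replicate 4, Atf3 was at 2.05, and on replicate 3 Hspa1a was at 0.11, with the nearest at −4.83 and −3.87. Of the medullary LCM arrays, replicate 5 had Egr1 at −1.84 (nearest 0.12), replicate 3 had Btg2 at 1.86 (nearest 0.81) and replicate 4 had Rhob at 2.31 (nearest −3.43).

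The interaction of sinus and isolation was called in Gadd45b (−7.93), Nr4a3 (−7.1) and Zfp36 (−4.99), tested with limma over 14 arrays. Nr4a3 passed the filter through the subcapsular FACS arrays alone, so that its call is no support, and it was −1.63 with normexp background correction. Without array weights none of these genes was called, and with the slide as a block only Nr4a3 was.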

How the results depend on the processing

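The count of the 40 genes called between sinuses in LCM was 0 in each alternative except centring on housekeeping genes, chosen after seeing the data, with 1 (Gadd45b). In FACS it was 6 with trend and robust eBayes, 4 with housekeeping centring and 5 with all 14 arrays in 1 fit, against 0. For FACS minus LCM (9) it was 2 with the slide as a block, 0 on slide 2 alone, 3 within the medullary sinus and 4 to 11 with 1 array left out. For the interaction (3) it was 6 with normexp (Fos, Egr1, Dusp1 and Nr4a2 gained, Nr4a3 lost), 0 without array weights, 1 with the slide as a block and 0 to 5 with 1 array left out. With the replicate block, although numbers do not pair samples, the counts were 0, 0, 6 and 0. The median of the 40 genes minus that of all genes, −3.04 in FACS, was −2.5 with normexp and −3.61 to −2.5 with 1 array left out. For FACS minus LCM, 1.82, it was 1.01 with normexp, −1.01 on slide 2 alone, −0.09 within the medullary and 4.18 within the subcapsular sinus. The LCM differences of Jun and Egr1 turned sign: Jun, 0.07, was −0.05 with slide row as a block and −0.66 to 0.5 with 1 array left out, and Egr1, 0.62, was −0.05 to 1.06. Housekeeping centring moved the median difference of all genes to 1.03 (LCM), 2.22 (FACS), 0.27 (FACS minus LCM) and 1.06 (interaction), against 0.08, 0.74, 0.17 and 0.52. Of 835 alternatives for single genes 744 kept direction and side of the threshold. A lone FACS array of a sinus was assumed to vary like the other groups. Causes were not tested. Probes below background limit the folds of low genes.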
